A study of Mus musculus with 10 samples.

Results

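The mitochondrial ribosomal protein genes are the nuclear genes, named Mrpl and Mrps, whose proteins build the ribosome inside mitochondria. Members were the rows of the count table whose symbol is Mrpl or Mrps followed by a digit, without pseudogenes and with at least 10 counts summed over the 10 libraries. Of 83 candidate rows, 5 were pseudogenes and 1 (Mrpl53) had 0 counts, which left 77 members, 48 Mrpl and 29 Mrps, among 53465 rows. All 77 also passed the filter on low counts and were tested, so none was lost to it.

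Mitochondria carry their own ribosomes, which translate only the few proteins encoded by mitochondrial DNA, all of them subunits of the respiratory chain and ATP synthase. The ribosomal proteins themselves are encoded in the nucleus, translated in the cytosol and imported, and they assemble on the mitochondrial 12S and 16S rRNAs into a small and a large subunit. Some have relatives in the bacterial ribosome and others occur only in mitochondria. Erythroblasts, the dividing precursors of red cells, need mitochondria for the first and last steps of heme synthesis and lose them before they become mature red cells.

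The libraries were RNA sequencing of spleen erythroblasts of the strain C57BL/6, all taken 11 days after 5-FU, a drug that kills dividing blood precursors and is followed by a wave of red cell production in the spleen. The 4 genotypes were wild type (n = 2), miR-144/451-/- (n = 2, hereafter miR-144/451-null), Nrf2-/- (n = 3, hereafter Nrf2-null) and Nrf2/miR-144/451-/- (n = 3, hereafter double-null). The miR-144/451 cluster makes microRNAs typical of erythroid cells. Nrf2 is a transcription factor of antioxidant genes. The labels number the libraries without saying that they came from separate mice, so p-values measure the spread between libraries.

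Libraries held 13087827 to 15131036 counts. All 12 erythroblast markers were detected, and B cell markers summed to 1376.7 to 1469 CPM (counts scaled to library size) in wild type, 731.2 to 1085.4 in miR-144/451-null, 912.8 to 1076.8 in Nrf2-null and 321.8 to 738.7 in double-null. No marker of a B cell, T cell, NK cell, macrophage, neutrophil or megakaryocyte was at 0 in any genotype. In bulk samples, fewer cells of a type and less RNA per cell cannot be told apart. Nrf2-null replicate 3 stood apart in macrophage markers, at 1130.7 CPM against 81.7 to 432 in the others. Counts of Xist and of Y-linked genes marked 3 libraries as female, namely double-null replicate 3 and the pair from wild type, and the other 7 as male. A single null set against wild type is therefore also a set of males against females. Mir144 had 12 and 17 counts in wild type, 9, 13 and 16 in Nrf2-null, and 0 in every miR-144/451-null and double-null library.

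The sequences that bear on these members are the deleted microRNAs and the promoters of members called below. The mature microRNAs follow from RefSeq (GRCm38.p6, plus strand; miR-144-3p at chr11:78073047-78073066 and miR-451a at chr11:78073186-78073207), 5′ to 3′, with the seed, bases 2 to 8, in capitals.
miR-144-3p: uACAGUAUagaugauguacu
miR-451a: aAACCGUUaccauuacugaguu

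Matches to either seed in the longest annotated 3′ UTR were about as common in members as elsewhere. ATACTGT, the match to miR-144-3p, was in 11 of 77 members (14.3%) against 1625 of 11736 tested genes with a UTR (13.8%). AACGGTT, the match to miR-451a, was in 1 member (1.3%) against 261 genes (2.22%). The members' UTRs were shorter, with a median of 497 bases against 1356. The sites below, with their flanking bases and the match in capitals, are all those of the members whose values are named further on.
Mrpl17, miR-144-3p: gaagaccacccATACTGTatattagatct
Mrpl19, miR-144-3p: ctgaagctctgATACTGTtaagccagccc
Mrpl45, miR-144-3p: tttggaataaaATACTGTcaaagagttgg
Mrpl48, miR-144-3p, first site: ctcatcctaccATACTGTtttagagtgaa
Mrpl48, miR-144-3p, second site: tcattggccagATACTGTtattttatttt
Mrpl50, miR-144-3p: gaaacacagaaATACTGTaggtgtggaat
Mrps5, miR-144-3p: tctgtccataaATACTGTgccaggctgtg
Mrps27, miR-451a: actaagtgacaAACGGTTgggctgaagcc
A match is a description of the letters and not evidence of binding. In double-null against Nrf2-null, described below, the 11 members with a miR-144-3p match had a median log2 fold change of 0.40, and 3 of them (Mrpl45, Mrpl48 and Mrpl50) were called higher. Mrpl19 and Mrps5 had log2 fold changes of 0.46 and 0.40 without a call, and Mrpl17 had -0.25. The 66 without it also had a median of 0.40, with 16 called higher. Of all tested genes 14.4% were called higher. The share among tested genes with the same match was not computed.

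Promoters from 250 bases before to 50 after the start were found in the RefSeq table for 68 members (74 promoters), set against 12433 promoters of 9769 tested genes. The motifs were searched on both strands and could overlap one another. CCGGAAG, the core bound by the ETS factor GABP, was in 33.8% of member promoters against 17.6% of all. AANATGG, a YY1 core, was in 31.1% against 15.2%, and the site of the respiratory factor NRF1 (GCGC, any base, then TGCGC) in 17.6% against 9.76%. GGGCGGG (SP1), CACGTG (E-box) and TGACNNNGC (antioxidant response element, the site of Nrf2) were in 43.2%, 9.46% and 18.9% of member promoters, against 44.6%, 9.92% and 14.6% of all. Base composition was close, with a median GC content of 58.5% in member promoters and 60.3% in all. The promoters of the members Mrpl24 (chr3:87919294-87919593, plus strand), Mrpl45 (chr11:97315466-97315765, plus strand) and Mrps21 (chr3:95871465-95871764, minus strand), on GRCm38.p6, show the 3 cores that were more frequent in member promoters in capitals. They are YY1 in Mrpl24, NRF1 in Mrpl45, and NRF1 followed by ETS in Mrps21.
Mrpl24: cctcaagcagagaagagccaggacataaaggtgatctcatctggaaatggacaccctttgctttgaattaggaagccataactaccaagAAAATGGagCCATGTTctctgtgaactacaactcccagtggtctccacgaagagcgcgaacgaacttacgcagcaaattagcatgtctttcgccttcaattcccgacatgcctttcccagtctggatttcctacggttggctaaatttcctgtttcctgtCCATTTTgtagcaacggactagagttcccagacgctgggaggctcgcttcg
Mrpl45: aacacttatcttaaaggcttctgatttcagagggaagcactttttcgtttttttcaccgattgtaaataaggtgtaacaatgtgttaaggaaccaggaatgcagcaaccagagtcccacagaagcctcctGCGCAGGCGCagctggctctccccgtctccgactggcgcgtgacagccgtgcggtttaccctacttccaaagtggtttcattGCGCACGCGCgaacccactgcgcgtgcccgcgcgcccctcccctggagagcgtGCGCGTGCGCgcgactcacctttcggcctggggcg
Mrps21: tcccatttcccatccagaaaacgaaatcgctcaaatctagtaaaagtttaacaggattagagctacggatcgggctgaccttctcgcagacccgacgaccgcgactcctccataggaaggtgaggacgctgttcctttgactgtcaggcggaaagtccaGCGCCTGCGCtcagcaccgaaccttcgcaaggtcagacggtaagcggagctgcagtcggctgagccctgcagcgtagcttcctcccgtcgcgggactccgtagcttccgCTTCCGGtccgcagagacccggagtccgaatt
The presence of a motif did not go with more calls in any uniform way. In double-null against Nrf2-null, 4 of 13 members with an NRF1 match and 13 of 55 without were called higher (medians 0.31 and 0.40). For ETS the counts were 3 of 25 and 14 of 43, for YY1 6 of 23 and 11 of 45, and for SP1 3 of 29 and 14 of 39. They were 3 of 5 and 14 of 63 for the E-box, and 5 of 14 and 12 of 54 for the antioxidant response element. Of all tested genes 14.4% were called higher. The share among tested genes with the same motif was not computed.

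Per length, the members' levels spanned a 67.8-fold range. Mean FPKM (counts scaled by gene length and library total, as the authors deposited it) ran from 0.469 to 31.8 over the 10 libraries, with a median of 5.16. The highest were Mrps21 (31.8), Mrpl34 (30.6), Mrpl20 (25.8) and Mrpl28 (23.7), all with bacterial relatives. The lowest were Mrpl33 (0.469), Mrps35 (0.706), Mrps6 (0.912) and Mrpl47 (1.10). The length behind the FPKM equals all annotated exonic bases of the gene for 70 of 77 members, which lowers the value of genes with many isoforms. Mrps35 was divided by 8631 bases and Mrpl33 by 7326, against a median of 2255. In counts, members ranged from 136 (Mrps6) to 6019 (Mrpl20), with a median of 1789 against 1548 over all tested genes.

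Levels between libraries are given below as CPM with TMM scaling. Summed over the 77 members, the level was lowest in Nrf2-null and highest in miR-144/451-null. The 48 Mrpl genes summed to 807 and 797 CPM for wild type, 870 and 936 for miR-144/451-null, 661, 736 and 626 for Nrf2-null, and 805, 764 and 940 for double-null. The 29 Mrps genes summed to 396 and 339, 405 and 443, 290, 308 and 270, and 353, 363 and 432 in the same order. For both sets every Nrf2-null library lay below every library of the other genotypes, and every miR-144/451-null library lay above both wild type libraries. Double-null libraries overlapped wild type and, through replicate 3, miR-144/451-null. As mean ± SD, all members summed to 1170 ± 47.4 CPM in wild type (n = 2), 1328 ± 72.8 in miR-144/451-null (n = 2), 964 ± 74.7 in Nrf2-null (n = 3) and 1219 ± 134 in double-null (n = 3).

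**Figure D1:**
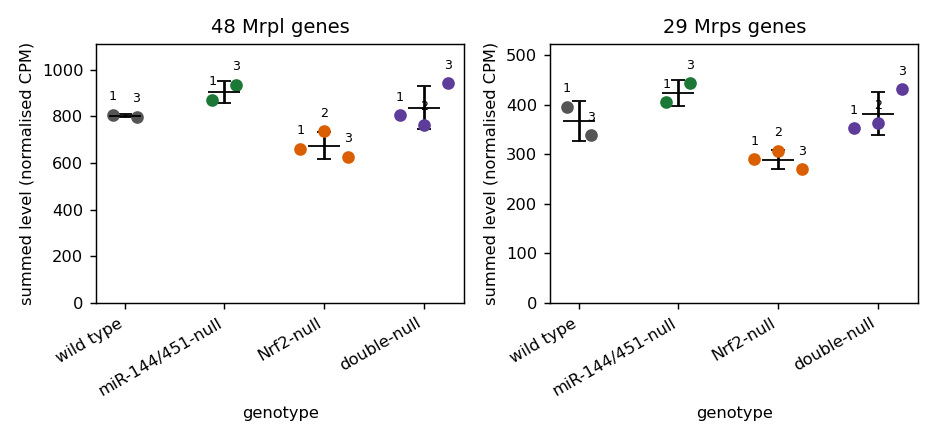
Summed TMM-normalised CPM of the 48 Mrpl genes (left) and the 29 Mrps genes (right) by genotype; points are libraries with their replicate numbers, and bars give the mean and SD (n = 2 or 3). The 3 Nrf2-null libraries lie lowest in both panels, and the 2 miR-144/451-null libraries lie above both wild type libraries.

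The order of the genotype means was shared by many members. The order miR-144/451-null, double-null, wild type, Nrf2-null held for 30 members, and 21 others had wild type and double-null exchanged. Nrf2-null had the lowest mean for 67 of 77, and miR-144/451-null the highest for 52. By library, 44 members were at their lowest in Nrf2-null replicate 3, 37 at their highest in miR-144/451-null replicate 3 and 21 in double-null replicate 3. Across the 10 libraries the 2926 pairs of members had a median Pearson r of 0.59, and 0.38 after each genotype's mean was removed. These correlations describe pairs that share libraries and scaling, and carry no test. Mrpl36, a small protein of the large subunit, had the highest mean r with the other members (0.679), while Mrps18c (-0.271), Mrps36 (-0.27) and Mrpl51 (-0.23) ran against them.

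**Figure D2:**
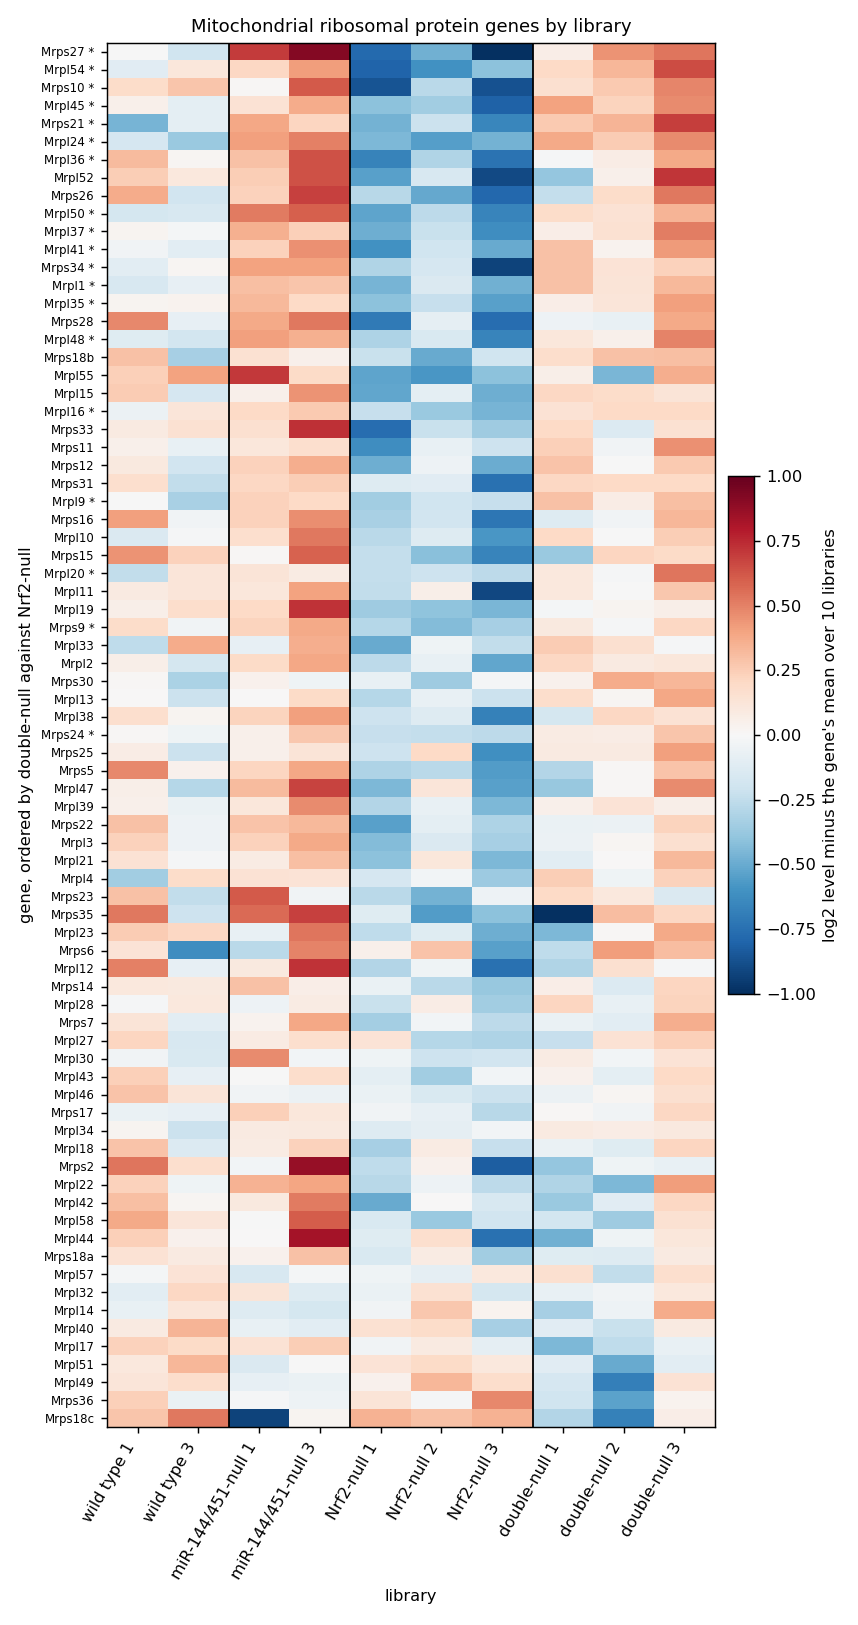
Heat map of the 77 members (rows, ordered by double-null against Nrf2-null, called members starred) in 10 libraries (columns); colour is log2(CPM + 0.5) minus the gene's mean over the libraries, saturated at -1 and 1. The Nrf2-null columns are blue for most rows, and the last rows, ending in Mrps18c, have the opposite colours.

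Loss of the cluster was examined first where Nrf2 is absent, in double-null against Nrf2-null. Of the 77 members, 19 rose and none fell (24.7% higher), beside 27.3% of all 14110 tested genes called, 14.4% higher and 12.9% lower. The call is edgeR's quasi-likelihood test with a Benjamini-Hochberg adjusted p under 0.05 over all tested genes. The median log2 fold change was 0.40 over members and 0.02 over all tested genes, and 70 members were positive and 7 negative. Every double-null library was above every Nrf2-null library for 41 members (23.4% of all tested genes) and below for 2 (21.8%). Of 48 Mrpl genes 13 rose (median 0.37), and of 29 Mrps genes 6 (median 0.42). The number of calls depended on single libraries. It was 8 without Nrf2-null replicate 1, 9 without Nrf2-null replicate 3 and 10 without double-null replicate 3, where 9.8%, 10.4% and 11.8% of all tested genes were called higher. In the 7 male libraries 7 members rose (9.09%), beside 10.9% of all tested genes, so the share of members called stood near the background in these 4 fits, while their median stayed at 0.33 to 0.39.

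Among large-subunit members, Mrpl24 had the smallest p. Mrpl24, the relative of bacterial L24, was at 17.0, 15.7 and 16.7 CPM in Nrf2-null and 30.4, 27.8 and 32.4 in double-null. All double-null libraries lay above all Nrf2-null libraries, with a narrow spread within each. The difference was 1.84-fold (log2 fold change 0.88 ± 0.13 SE, edgeR adjusted p = 9.48e-04). Reads of Mrpl24 are uncertain in part, since 26.3% of its exonic bases overlap Rrnad1 on the other strand and the counting strand is not given in the sources used here.

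Mrpl54, a mitochondria-specific protein of the large subunit, was at 5.72, 6.62 and 7.65 CPM in Nrf2-null and 11.97, 13.2 and 16.6 in double-null. The groups were apart, and double-null replicate 3 was the highest. The log2 fold change was 1.06 ± 0.20 (2.09-fold, adjusted p = 0.00345). Mrpl45, which lies at the exit of the peptide tunnel and holds the ribosome to the inner membrane, was at 10.4, 10.8 and 7.73 CPM against 18.6, 16.3 and 19.4. It did not overlap between groups and rose 1.88-fold (0.91 ± 0.18, adjusted p = 0.00406). Its promoter is the sequence with 3 NRF1 matches above.

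Mrpl50, also found only in mitochondria, was at 12.4, 15.1 and 11.3 CPM in Nrf2-null and 20.7, 20.1 and 23.1 in double-null. The groups did not overlap, and the log2 fold change was 0.72 ± 0.15 (adjusted p = 0.00604). Mrpl37, another mitochondria-specific protein, was at 17.8, 21.6 and 16.2 CPM against 26.4, 28.2 and 36.2. Here too every double-null library was higher (0.71 ± 0.16, adjusted p = 0.0089). The other 8 large-subunit genes that rose were Mrpl36, Mrpl41, Mrpl1, Mrpl35, Mrpl48, Mrpl16, Mrpl9 and Mrpl20, with log2 fold changes from 0.47 (Mrpl20, adjusted p = 0.0487) to 0.75 (Mrpl36, adjusted p = 0.0234).

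Among small-subunit members, Mrps27, a pentatricopeptide-repeat protein that binds RNA, had the highest fold of all 77. It was a low gene, at 2.35, 3.01 and 1.61 CPM in Nrf2-null and 4.61, 6.16 and 6.56 in double-null. The groups did not overlap, and the log2 fold change was 1.31 ± 0.29 (2.48-fold, adjusted p = 0.00728). It holds the only miR-451a match of the members, and 24.2% of its exonic bases overlap an antisense gene.

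Mrps21, a bacterial-type protein of the small subunit and the member with the highest FPKM, was at 15.9, 19.2 and 14.1 CPM in Nrf2-null and 26.9, 28.4 and 36.5 in double-null. All double-null libraries were higher (0.90 ± 0.18, adjusted p = 0.00445), though 14.5% of its 31-base sequences also occur in another gene, most of them in Gm6181 (14.2%). Mrps10, the relative of bacterial S10, was at 4.84, 7.59 and 4.82 CPM against 10.4, 11.2 and 13.2. It rose 2.01-fold with no overlap (1.01 ± 0.25, adjusted p = 0.0122). The other 3 that rose were Mrps34 (0.69), Mrps9 (0.46) and Mrps24 (0.40, adjusted p = 0.05 after rounding). Mrps34 cannot be read firmly, because 77.8% of its exonic bases overlap Mapk8ip3 on the other strand and 35.6% of its 31-base sequences are shared with Nme3.

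Of the 19 called members, 7 kept their call in all 19 other ways of fitting the data that were tried for this comparison. They were Mrpl24, Mrpl37, Mrpl45, Mrpl50, Mrpl54, Mrps21 and Mrps27. Mrps10 kept it in 17, Mrpl41 in 16 and Mrps24 in 1.

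**Figure D3:**
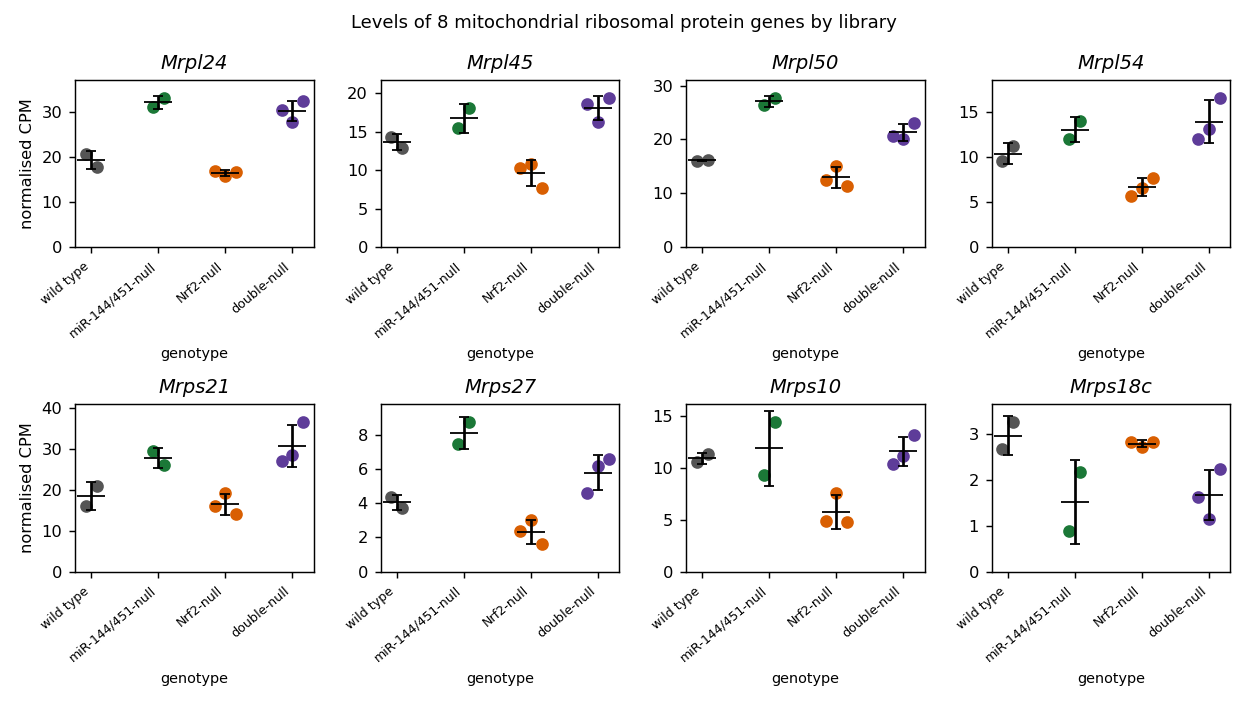
TMM-normalised CPM of 8 members by genotype; each point is a library, and bars give the mean and SD (n = 2 or 3). For the first 7 genes every double-null library is above every Nrf2-null library, and for Mrps18c every double-null library is below, without a call.

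Some members did not share the direction. The 3 Mrps18 genes encode relatives of bacterial S18 that sit at different places in the ribosome: Mrps18c at the bacterial position of the small subunit, Mrps18b elsewhere in the small subunit and Mrps18a in the large subunit. Mrps18c was at 2.83, 2.71 and 2.83 CPM in Nrf2-null and 1.64, 1.14 and 2.23 in double-null. Double-null was lower in every library, but the difference of -0.73 ± 0.39 was not called (adjusted p = 0.185). Mrps18c shares 32.8% of its 31-base sequences with other genes and held 316 counts in all.

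Mrps18b was at 5.11, 4.13 and 5.203 CPM in Nrf2-null and 6.91, 7.52 and 7.57 in double-null. Here the direction was opposite to that of Mrps18c, again without overlap and without a call (0.61 ± 0.24, adjusted p = 0.0832). Mrps18a overlapped between the groups (0.08 ± 0.18, adjusted p = 0.761). Mrps36, which carries an Mrps name although its protein is now assigned to the oxoglutarate dehydrogenase complex, had a log2 fold change of -0.44 (adjusted p = 0.114), Mrpl51 -0.38 (adjusted p = 0.0661) and Mrpl49 -0.39 (adjusted p = 0.146). Mrpl49 was called lower in 2 alternatives, with a term for sex (-0.60, adjusted p = 0.0386) and without double-null replicate 3 (-0.58, adjusted p = 0.0386).

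Grouped by descent, 7 of 29 large-subunit proteins with a bacterial relative rose (median 0.38) and 6 of 21 without (median 0.36). In the small subunit 4 of 17 with a relative rose (0.46) and 2 of 9 without (0.53). Mrps18a and Mrps30 count here with the large-subunit proteins without a bacterial relative, and Mrps36 with neither subunit. Mrps18a was placed there although it is a relative of bacterial S18. By depth, 8 of the 26 members with the most counts rose, 7 of the 25 in the middle and 4 of the 26 with the fewest, with medians of 0.34, 0.48 and 0.39. The fewest calls were thus among the members with the fewest counts, while the medians did not follow that order. A relation between counts and calls was not tested.

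Loss of the cluster alone was then read from miR-144/451-null against wild type. Of the 77 members 2 rose (2.6%) and none fell, beside 4.63% of all tested genes called, 2.4% higher and 2.23% lower. The share of members called was that of the background. The median log2 fold change was 0.21 against 0.02 over all tested genes, with 64 members positive and 13 negative. Every miR-144/451-null library was above both wild type libraries for 32 members (24.2% of all tested genes) and below for 7 (22.8%). The called members, Mrpl24 and Mrpl50, were also called in double-null against Nrf2-null, which shares no library with this comparison. Scaling and spread were estimated over all 10 libraries in 1 fit, so these calls are not independent. With only wild type and miR-144/451-null fitted neither was called, beside 0.643% of all tested genes called higher.

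Mrpl24 was at 20.7 and 17.8 CPM in wild type against 31.1 and 33.1 in miR-144/451-null. The groups were apart (0.74 ± 0.16, 1.67-fold, adjusted p = 0.0282). Mrpl50 was at 16.03 and 16.2 CPM against 26.3 and 27.8, again apart (0.75 ± 0.19, 1.68-fold, adjusted p = 0.0453). Both calls were lost without Nrf2-null replicate 1, where 1.46% of all tested genes were called higher. Of the 2 calls, 1 was lost without Nrf2-null replicate 2 or double-null replicate 1 or 2 (1.73%, 2.04% and 2.22% of all tested genes). A fit without a wild type or miR-144/451-null library leaves 1 library in that genotype, so calls are not counted there. Over 18 alternatives the log2 fold change ran from 0.64 to 0.89 for Mrpl24 and from 0.73 to 0.93 for Mrpl50. The members' median ran from 0.11 without wild type replicate 3 to 0.32 without wild type replicate 1. Both calls were also lost with a term for sex, where that median was 0.45 and 0.00709% of all tested genes were called higher.

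Mrps27 had a larger estimate than either, at 4.37 and 3.75 CPM in wild type against 7.44 and 8.74 in miR-144/451-null, without a call (0.99 ± 0.34, adjusted p = 0.138). Mrps21 was at 16.1 and 20.9 against 29.4 and 26.0, apart but not called (0.58 ± 0.22, adjusted p = 0.177). Mrps10 overlapped, at 10.6 and 11.3 against 9.34 and 14.4 (0.12 ± 0.30). Mrps18c was at 2.67 and 3.26 CPM in wild type against 0.876 and 2.17 in miR-144/451-null, lower in both and not called (-0.94 ± 0.47, adjusted p = 0.33).

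**Figure D4:**
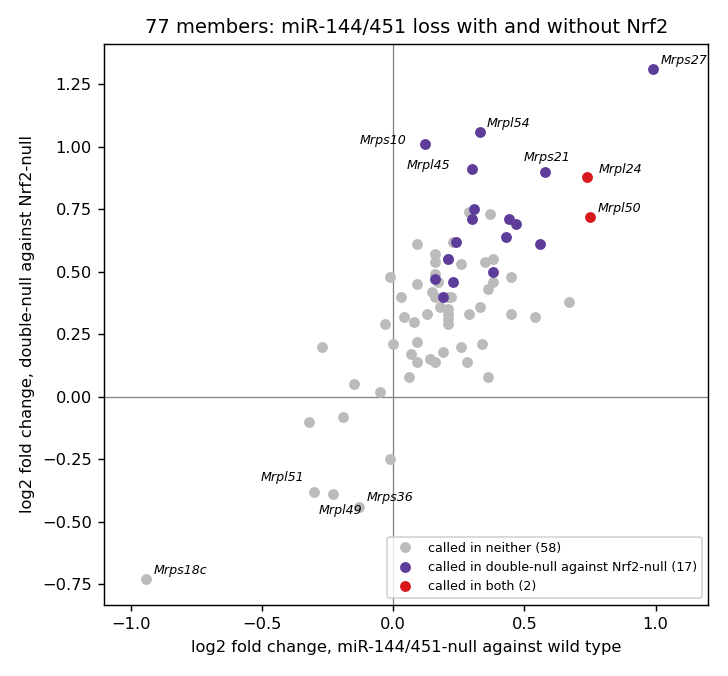
Log2 fold change of each member in miR-144/451-null against wild type (horizontal) and in double-null against Nrf2-null (vertical), comparisons that share no library. Red marks the 2 members called in both, purple the 17 called in double-null against Nrf2-null alone and grey the 58 called in neither, with Mrps18c at the lower left.

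Whether the effect of losing the cluster differed with and without Nrf2 was tested by the interaction. No member was called in either direction, beside 0.0283% of all tested genes higher and 0.0354% lower, and 2 of 77 members were higher and none lower at an unadjusted p under 0.05. The count of 2 is near the background, since 2.25% of all tested genes were higher and 2.2% lower at that p. DESeq2 also called none. The 3 members with the smallest p were Mrpl54 (0.73 ± 0.32), Mrps10 (0.89 ± 0.39) and Mrpl45 (0.61 ± 0.28), each with an edgeR adjusted p = 0.999. The members' median was 0.19, with 63 positive, and it turned to -0.14 with a term for sex. No member was thus shown to differ between the comparisons.

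Loss of Nrf2 with the cluster present, Nrf2-null against wild type, gave no call among members, beside 0.128% of all tested genes higher and 0.0638% lower. Yet 72 members were negative, the median was -0.31, and 17 of 77 were lower and none higher at an unadjusted p under 0.05 in edgeR, beside 6.92% of all tested genes lower and 5.18% higher. DESeq2 called none higher and none lower. Every Nrf2-null library lay below both wild type libraries for 37 members, beside 20.1% of all tested genes, and above for none, beside 15.7%. Macrophage markers lay the other way, with 10 of 11 positive (median 1.54, none called) and sums of 340.1 to 1130.7 CPM in Nrf2-null against 199.4 to 245.4 in wild type. All 11 B cell markers were negative (median -0.66, none called). Their part in the members' values was not tested. Mrps10 had the smallest p, at 10.6 and 11.3 CPM in wild type and 4.84, 7.59 and 4.82 in Nrf2-null (-0.93 ± 0.27, adjusted p = 0.306).

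Mrpl36, the large-subunit protein most like the rest, was at 13.3 and 10.8 CPM against 6.46, 8.50 and 6.12 (-0.78 ± 0.23, adjusted p = 0.313). Mrps5, the relative of bacterial S5, was at 29.3 and 21.5 against 16.7, 17.2 and 14.0 (-0.67 ± 0.21, adjusted p = 0.319). None of the 3 overlapped between genotypes, and none was called. The members' median was -0.07 once sex entered the fit, a term estimated from the double-null libraries. These Nrf2-null libraries are also the ones that the double-null libraries were set against above, so the 2 sets of values are not independent.

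Loss of Nrf2 without the cluster, double-null against miR-144/451-null, also gave no call among members, beside 0.0496% of all tested genes higher and 0.0142% lower. The median was -0.14, and no member was higher and 2 of 77 were lower at an unadjusted p under 0.05 in edgeR, below the 4.81% and 5.87% of all tested genes. DESeq2 again called none. Mrpl17, a bacterial-type large-subunit protein, was at 14.7 and 15.8 CPM in miR-144/451-null and 9.59, 11.0 and 12.54 in double-null (-0.47 ± 0.18, adjusted p = 0.418). Mrpl19 was at 9.85 and 14.3 against 8.40, 8.66 and 8.86 (-0.49 ± 0.22, adjusted p = 0.461), and Mrpl50 at 26.3 and 27.8 against 20.7, 20.1 and 23.1 (-0.34 ± 0.17, adjusted p = 0.496). Double-null was lower in every library for the 3.

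With both absent, double-null against wild type, 2 members rose and none fell, beside 8.26% and 8.95% of all tested genes. The members' share was below the background. They were Mrpl24 (0.65 ± 0.15, adjusted p = 0.0147) and Mrps21 (0.73 ± 0.20, adjusted p = 0.0333). The members' median was 0.03, with 44 positive and 33 negative. Mrpl24 was at 20.7 and 17.8 CPM in wild type and Mrps21 at 16.1 and 20.9, below every double-null value given above. Of these 2 calls, 1 was lost without Nrf2-null replicate 1 or double-null replicate 3, where 6.56% and 7.31% of all tested genes were called higher. A fit without a wild type library leaves 1 library in that genotype, so calls are not counted there. Over 18 alternatives the log2 fold change ran from 0.55 to 0.78 for Mrpl24 and from 0.57 to 0.98 for Mrps21.

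Other genes that serve the mitochondrial ribosome were taken from lists. Of 5 further ribosomal proteins without an Mrp symbol, Chchd1 (0.54 ± 0.17, adjusted p = 0.0329) and Ptcd3 (0.43 ± 0.15, adjusted p = 0.0468), both of the small subunit, rose in double-null against Nrf2-null. Of 19 alternatives, Chchd1 kept its call in 7 and Ptcd3 in 3. Dap3, a GTP-binding protein of the small subunit, was at 0.35 (adjusted p = 0.0624) and was called in 2 alternatives. None of the 5 was called in miR-144/451-null set against wild type.

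Of 26 assembly factors tested, 6 rose and 3 fell in double-null against Nrf2-null (23.1% and 11.5%, median 0.38). Beside them, 14.4% of all tested genes rose and 12.9% fell. Rbfa, which helps mature the small subunit rRNA, was at 12.4, 13.4 and 12.01 CPM in Nrf2-null and 35.4, 37.6 and 33.3 in double-null. Its wild type values were 18.4 and 17.3, against 36.6 and 37.4 in miR-144/451-null, so that both cluster-null genotypes were above both others. The log2 fold changes were 1.49 ± 0.13 (adjusted p = 5.32e-05) and 1.05 ± 0.15 (adjusted p = 0.00575). Eral1, a GTPase that binds the small subunit rRNA, behaved alike, at 9.02, 9.999 and 7.80 CPM in Nrf2-null, 19.6, 18.9 and 23.6 in double-null, 13.9 and 12.7 in wild type, and 25.3 and 25.9 in miR-144/451-null. It rose by 1.21 ± 0.16 (adjusted p = 4.86e-04) and 0.94 ± 0.20 (adjusted p = 0.0225). Eral1 is the next protein-coding gene after Mir144 on the chromosome, so the deleted locus lies beside it, and an effect of the deletion on this neighbour cannot be told apart from loss of the microRNAs.

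The 3 assembly factors that fell in double-null against Nrf2-null, a share near that of all tested genes, modify rRNA. They were Mrm1, a methyltransferase of the large rRNA (-0.75 ± 0.15, adjusted p = 0.00448), Tfb1m, which dimethylates the small rRNA (-1.27, adjusted p = 0.00646), and Mettl15 (-0.86, adjusted p = 0.0222), also a methyltransferase of the small rRNA. Tfb1m was at 8.48, 9.70 and 9.56 CPM in Nrf2-null and 3.27, 2.81 and 5.404 in double-null, without overlap. Its paralogue Tfb2m, which serves mitochondrial transcription instead, moved the other way. Tfb2m was at 19.6, 18.3 and 27.2 CPM against 52.0, 58.5 and 47.0 (1.28 ± 0.21, adjusted p = 0.0015). It also rose in miR-144/451-null against wild type (1.25 ± 0.26, adjusted p = 0.0225).

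Of 14 translation factors 5 rose and 1 fell in double-null against Nrf2-null (35.7% and 7.14%, median 0.47). None was called in miR-144/451-null set against wild type. The elongation factor gene Guf1 (0.93 ± 0.18, adjusted p = 0.00325), the initiation factor gene Mtif2 (0.68 ± 0.13, adjusted p = 0.00356) and Mtfmt, which formylates the initiator tRNA (1.06 ± 0.23, adjusted p = 0.00649), rose. The release factor gene Mtrf1l fell (-0.86, adjusted p = 0.0341), and its value of -1.06 in miR-144/451-null against wild type was not called (adjusted p = 0.0994). Of 22 genes of mitochondrial aminoacyl-tRNA synthesis, 6 rose and 2 fell (27.3% and 9.09%), beside 14.4% and 12.9% of all tested genes. The 22 include Kars and Gars, which also encode the cytosolic enzymes. Iars2 (0.60 ± 0.14) and Fars2 (0.76 ± 0.19) rose, and none of the 22 was called in miR-144/451-null set against wild type.

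Of 18 genes of mitochondrial DNA upkeep and transcription 6 rose and none fell (33.3% higher, median 0.29). Those that rose include the tRNA-processing genes Trmt10c (0.87 ± 0.17) and Elac2 (0.95 ± 0.20) and Tfam, which packages mitochondrial DNA (0.52). Of 25 import and chaperone genes 13 rose and none fell (52.0% higher, median 0.59). Of all tested genes 14.4% rose and 12.9% fell. The import receptor gene Tomm20 rose by 0.83 ± 0.12 and the translocase gene Tomm7 by 1.01 ± 0.18. Pmpcb, a subunit of the peptidase that trims imported proteins, rose where Nrf2 is absent (1.36 ± 0.13, adjusted p = 8.39e-05) and in miR-144/451-null against wild type (1.07 ± 0.16, adjusted p = 0.00657). Of 9 regulators of mitochondrial biogenesis none rose and 4 fell (44.4%), namely Myc (-1.35 ± 0.36), Nrf1 (-0.57 ± 0.14), Gabpb2 (-0.42 ± 0.13) and Pprc1 (-0.49). Of the 9, 2 were positive and 7 negative. Gabpa, another GABP gene, was at 56.7, 57.9 and 69.6 CPM in Nrf2-null and 75.7, 70.2 and 80.3 in double-null, without a call. In double-null against wild type 1 regulator rose and 2 fell (11.1% and 22.2%), beside 8.26% and 8.95% of all tested genes. Nrf1 encodes the factor whose sites were counted above, and Myc a growth-promoting transcription factor.

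Transcripts of mitochondrial DNA that these ribosomes translate were higher as well. Of 10 tested, 7 rose in double-null against Nrf2-null (median 0.65) and mt-Nd4 rose in miR-144/451-null against wild type (0.67 ± 0.16, adjusted p = 0.0401). mt-Nd4 was at 266, 330 and 337 CPM in Nrf2-null, 386 and 374 in wild type, 491, 556 and 487 in double-null, and 580 and 626 in miR-144/451-null. Every cluster-null library thus lay above every other library. Over 18 alternatives the log2 fold change of mt-Nd4 in miR-144/451-null against wild type ran from 0.56 to 0.79. With a term for sex only 1 of all 14110 tested genes was called higher in that comparison. At most 1 of the calls of Rbfa, Eral1, Tfb2m, Pmpcb and mt-Nd4 in it was therefore kept with that term. Neither mitochondrial rRNA was called (mt-Rnr1 0.87 ± 0.42, mt-Rnr2 0.20 ± 0.28), with double-null sums from 862 to 1808 CPM. Of 79 nuclear respiratory chain genes 50 rose (median 0.56), and of 80 cytosolic ribosomal protein genes 29 (median 0.40), none falling in either list. The members' median of 0.40 therefore equalled that of the cytosolic ribosomal protein genes and was below that of the respiratory chain genes. These differences between lists were not tested.

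**Figure D5:**
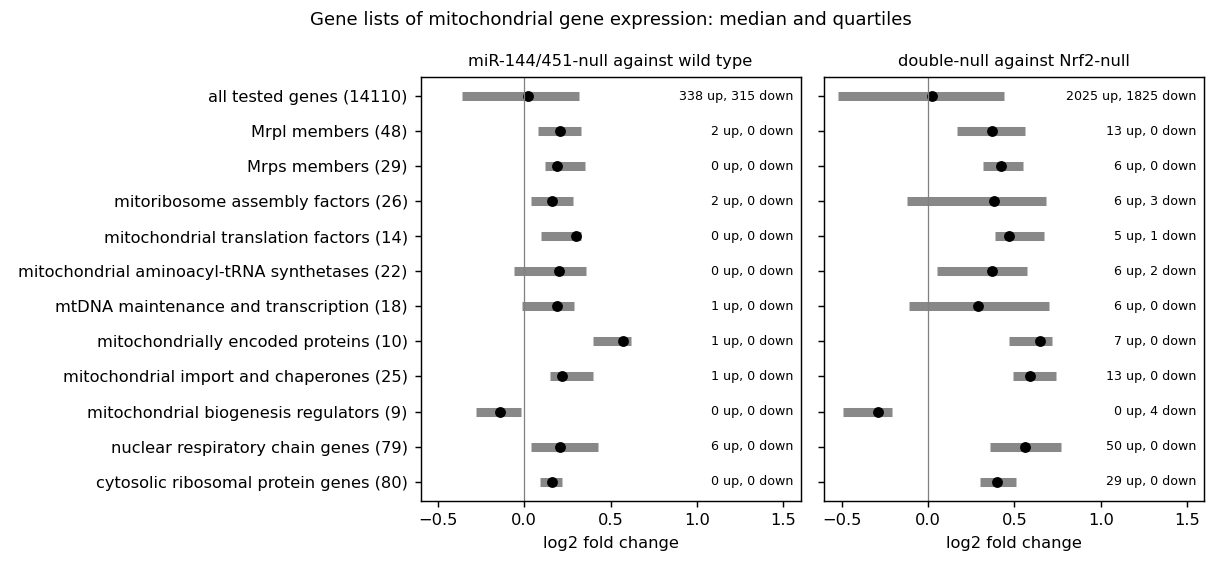
Median (point) and quartiles (bar) of the log2 fold change of 11 gene lists and of all tested genes, with the number tested in brackets and the numbers called up and down at the right, in miR-144/451-null against wild type (left) and double-null against Nrf2-null (right). Medians are above 0 in both panels for every list shown but the biogenesis regulators (-0.14 and -0.29), and the members' quartiles in the right panel are close to those of the cytosolic ribosomal protein genes.

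Markers of other cells moved with these results. In double-null against Nrf2-null 10 of 11 B cell markers fell (median -1.86), beside 12.9% of all tested genes. Of the others 2 of 8 T cell, 1 of 6 NK cell and 1 of 11 macrophage markers fell. All 8 T cell, 6 NK cell and 11 macrophage markers were negative, with medians of -0.88, -1.54 and -1.49. Of 7 megakaryocyte markers 2 rose and 1 fell. All 10 neutrophil markers were positive (median 0.91) and none was called, with sums of 1176.3 to 1275.5 CPM in double-null and 174.7 to 1269.3 in Nrf2-null. Of the 12 erythroblast markers 3 fell, including Klf1 by 1.10 and Epor by 0.48 on the log2 scale, and none rose. The list went both ways, with 5 positive and 7 negative (median -0.09). Its sums were 132785.3 to 155805.9 CPM in double-null and 112639.7 to 137502.5 in Nrf2-null. In miR-144/451-null against wild type no marker of another cell type was called, though all 11 B cell markers were negative (median -1.06) and all 10 neutrophil markers positive (median 0.52). Of the 12 erythroblast markers 1 fell there, and 11 were negative and 1 positive (median -0.23). In double-null against wild type 10 of 11 B cell and 2 of 8 T cell markers fell (medians -2.43 and -1.07), beside 1 NK cell marker. Of the megakaryocyte markers 1 rose and 1 fell there, and the 10 neutrophil markers were positive (median 1.00) without a call. Their part in the members' values was not tested. Without Nrf2-null replicate 3, the library with the high macrophage markers, the members' median was 0.33 and 66 of 77 were positive. Without it 8 import genes, 3 assembly factors and 3 translation factors were called higher, in place of 13, 6 and 5. Without Nrf2-null replicate 1 the aminoacyl-tRNA list had 2 higher and the regulators 1 lower, and without double-null replicate 3 no regulator was called. In the male libraries 9 import genes, 4 assembly factors and 6 mitochondrially encoded mRNAs were called higher.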

How the data were processed

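The authors deposited raw counts for 53465 Ensembl genes in 10 libraries and, per library, FPKM values. The deposited FPKM equal count over length over library total, within 0.1% for all 196970 values compared. Per the submitters' processing notes, the build was mm9 and the tools included HISAT2 2.1.0, TopHat2, Bowtie2 2.2.3 and CASAVA, with no roles. The counting tool was not given in the sources used here, nor was the strand setting, so overlapping and antisense genes were not told apart. Symbols came from GENCODE M21 (99.8% of identifiers matched), and sequences from RefSeq (GRCm38.p6). Chromosome 18 was left out of the promoter search.

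Counts were fitted in R 4.3.3 with edgeR 4.0.16 (filterByExpr, TMM, robust quasi-likelihood, two-sided), with 1 coefficient per genotype, all 10 libraries, 14110 genes and 6 residual degrees of freedom. Adjusted p-values are Benjamini-Hochberg over all tested genes. The fit was tested on simulated counts. Levels are TMM-normalised CPM, and FPKM served only to compare genes. Overlap and shared 31-base sequences were computed from GENCODE M21. Sex was read from Xist and Y-linked counts. Replicates of a genotype differed by more than sampling noise in every pair (chi-square per degree of freedom 15.5 to 27.2) and were kept as separate libraries.

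Members and lists were chosen with earlier results of these data known. Named members are, per comparison, up to 8 with the smallest p among those called in a direction, or the 3 with the smallest p where none was called, the 3 with the smallest interaction p, the 4 with the highest and the 4 with the lowest FPKM, and the Mrps18 genes. Up to 3 genes per list are named by p in each of 2 comparisons. Promoters are from the 4 members with the smallest p in double-null against Nrf2-null among those with an entry in the RefSeq promoter table. The promoter of Mrpl50, also among them, held no match to the NRF1, ETS or YY1 core. Other members and genes were named after their values were seen. Some genes within the rule are not reported here. Alternatives were DESeq2 1.42.0, RLE factors, no scaling, no low count filter, globin genes removed, a replicate block, a term for sex, male libraries, only the groups compared, and each library left out.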

Additional observations from a re-analysis of the deposited data

How the results depend on the processing

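The members' median log2 fold change in double-null against Nrf2-null was 0.40 and stayed between 0.33 and 0.48 in 19 alternatives, but the number called did not. The 19 members higher were 12 without scaling factors, 10 with the replicate block, 8 with a term for sex and 7 in male libraries. As shares of members these were 15.6%, 13.0%, 10.4% and 9.09%, beside 12.8%, 12.1%, 10.9% and 10.9% of all tested genes called higher. With the replicate block, a term for sex or male libraries the members' share was thus near the background. The number was 8 to 18 (10.4% to 23.4%) with a Nrf2-null or double-null library left out, beside 9.8% to 12.6% of all tested genes. The 0 lower became 1 (Mrpl49) with a term for sex, and 0 to 1 with a library left out. For miR-144/451-null against wild type the 2 members higher were 1 with RLE factors, 1 without scaling and 1 without the low count filter. Beside these, 1.84%, 3.52% and 2.23% of all tested genes were called higher. They were 0 with the replicate block, 0 with a term for sex and 0 with only those genotypes fitted. In these fits 1.51%, 0.00709% and 0.643% of all tested genes were called higher. They were 0 to 2 with a Nrf2-null or double-null library left out, beside 1.46% to 2.65% of all tested genes. The median of 0.21 was 0.45 with a term for sex. In double-null against wild type the 2 members higher were 0 without scaling, 1 with the replicate block and 0 with a term for sex. In these fits 5.69%, 5.75% and 2.18% of all tested genes were called higher. They were 1 to 2 with a Nrf2-null or double-null library left out, beside 5.08% to 9.44% of all tested genes. The median of 0.03 was 0.18 with a term for sex and lay between -0.03 and 0.16 with a library left out. With a term for sex the median of Nrf2-null against wild type moved from -0.31 to -0.07, and that of the interaction from 0.19 to -0.14. Without scaling the median of double-null against miR-144/451-null moved from -0.14 to -0.36, where that of all tested genes was -0.24, and for miR-144/451-null against wild type that of all tested genes was 0.15 and all calls split into 497 higher and 247 lower, against 338 and 315 with scaling. The cause was not tested in any of these. Whether replicate numbers pair the libraries is not known. Correlations of deviations from the genotype mean ran from -0.111 to 0.287 for the same number and from -0.287 to 0.286 for different ones. Where a genotype has 2 libraries, their deviations mirror each other, so these ranges cannot decide it. Of the gene values named, 3 changed sign, none of them called: Mrps10 in miR-144/451-null against wild type (-0.20 without miR-144/451-null replicate 3), and, in double-null against Nrf2-null, Mrps18a (-0.02 without Nrf2-null replicate 3) and mt-Rnr2 (-0.01 to 0.44 with a library left out, lowest without Nrf2-null replicate 1). In addition, DESeq2 called 18 members higher in double-null against Nrf2-null (23.4%), 17 of them shared with edgeR. Beside these, it called 3.68% of all 53465 rows higher, in a fit without the low count filter. With 2 or 3 libraries per genotype and members down to 136 counts, a difference that was not called is not shown to be absent.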
